A study of Mus musculus with 8 samples.

Results

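The BCL2 family holds the proteins that set whether the mitochondrial outer membrane is opened during apoptosis. Its 10 core genes, Bcl2, Bcl2l1, Mcl1, Bax, Bak1, Bbc3, Pmaip1, Bcl2l11, Bid and Bad, were taken by symbol from the 43629 genes listed and followed by RNA sequencing of mouse dorsal forebrain at embryonic stage E12.5. Samples were 4 Sufu-cKO (Emx1-cre/+;Sufu-fl/fl) and 4 control (Sufu-fl/fl or Sufu-fl/+) preparations, all from male embryos on a mixed background with C57BL/6J. Control samples therefore carried floxed Sufu too, on one or both alleles, and the labels do not say which control had which genotype. Emx1-cre acts in dorsal forebrain progenitors and the cells born from them, so vessel, blood and immune cells in the tissue keep Sufu. Samples are named as in their labels, Mut_295, Mut_317, Mut_337 and Mut_340 for Sufu-cKO and Cont_294, Cont_345, Cont_365 and Cont_370 for control, and values by sample are always given in that order. Sufu encodes an inhibitor of the GLI transcription factors of the hedgehog pathway.

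Of the 10 genes, 1 was higher and 1 was lower in Sufu-cKO forebrain, the first from the pro-survival class and the second from the BH3-only class. Over all tested genes 5.34% were higher, 5.64% were lower and 11.0% were called in either direction, so 2 of 10 is a small number to set beside that share. Bcl2, which blocks membrane opening, rose to 62.2 ± 6.35 CPM, counts scaled to library size, in Sufu-cKO samples, against 41.9 ± 3.46 CPM in control samples (SD, n = 4 each). Bcl2l11, which encodes the death-promoting protein BIM, fell to 32.2 ± 0.872 CPM in Sufu-cKO samples, against 42.3 ± 2.22 CPM in control samples (SD, n = 4 each). The other 8 genes did not pass the test, including the effectors Bax and Bak1. Cell death itself was not measured.

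The family has 3 classes that act on one another by direct binding. Pro-survival proteins (BCL2, BCL-XL from Bcl2l1, MCL1) hold the effectors in check. The effectors BAX and BAK, once freed or activated, form pores through which cytochrome c leaves the mitochondrion and starts the caspase cascade. BH3-only proteins (PUMA from Bbc3, NOXA from Pmaip1, BIM, BID, BAD) sense stress or loss of trophic support and engage the other classes through a short helix, the BH3 motif. In the developing cortex, BCL-XL and MCL1 are known for keeping newborn neurons and progenitors alive, and BAX and BIM for the removal of surplus neurons.

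The shared BH3 core is the feature that joins the 3 classes, and its coding sequence is shown for 9 of the genes so that the sequences can be compared. Each line gives the 24 coding bases of the core from GENCODE M21 transcripts on GRCm38, 5′ to 3′. Capitals mark the first codon of the core, for leucine, and the codon for the aspartate.
Bcl2: CTCcgccgggctgggGATgacttc
Bcl2l1: CTGagagaggcaggcGATgagttt
Mcl1: CTGcggcgcgtgggcGACggcgtg
Bax: CTCcggcgaattggaGATgaactg
Bak1: CTTgctctcatcggaGATgatatt
Bcl2l11: CTGcggcggatcggaGACgagttc
Bbc3: CTGcggcggatggcgGACgacctc
Bid: CTCgcccaaataggcGATgagatg
Bad: CTCcgaaggatgagcGATgagttt
Cores were found by searching each coding sequence for this pattern, so the common spacing of the capitals was set by the search, and each transcript held 1 match, at codons 94 to 101 of Bcl2 and 150 to 157 of Bcl2l11. Pmaip1 is not shown. In BH3-only proteins this helix fills the groove that the pro-survival proteins use for binding.

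Gene levels were compared with the quasi-likelihood test of edgeR over all 15382 genes with enough counts, and a gene is called higher or lower here when its adjusted p was under 0.05. All 10 family genes were among those tested, and each had at least 10 counts in every sample. Across all tested genes, 11.0% were called, 5.34% higher and 5.64% lower in Sufu-cKO, and for 16.2% the samples of the groups did not overlap. Among the family genes 2 of 10 were called, 1 higher and 1 lower, and 3 had groups that did not overlap. The median log2 fold change was 0.09 over the family genes and 0.01 over all tested genes. At an unadjusted p under 0.05 stood 4 of the 10 genes and 22.5% of all genes. Total counts ran from 27514357 to 34878838 per sample. Sufu itself was at 44.8, 44.5, 37.4 and 35.9 CPM in the Sufu-cKO samples, against 106, 125, 112 and 105 CPM in the control samples, with a log2 fold change of -1.46 (edgeR adjusted p = 1.07e-06). The hedgehog reporter genes Gli1 and Ptch1 were called higher, with log2 fold changes of 4.21 and 3.39. No sample went against its label.

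**Figure D1:**
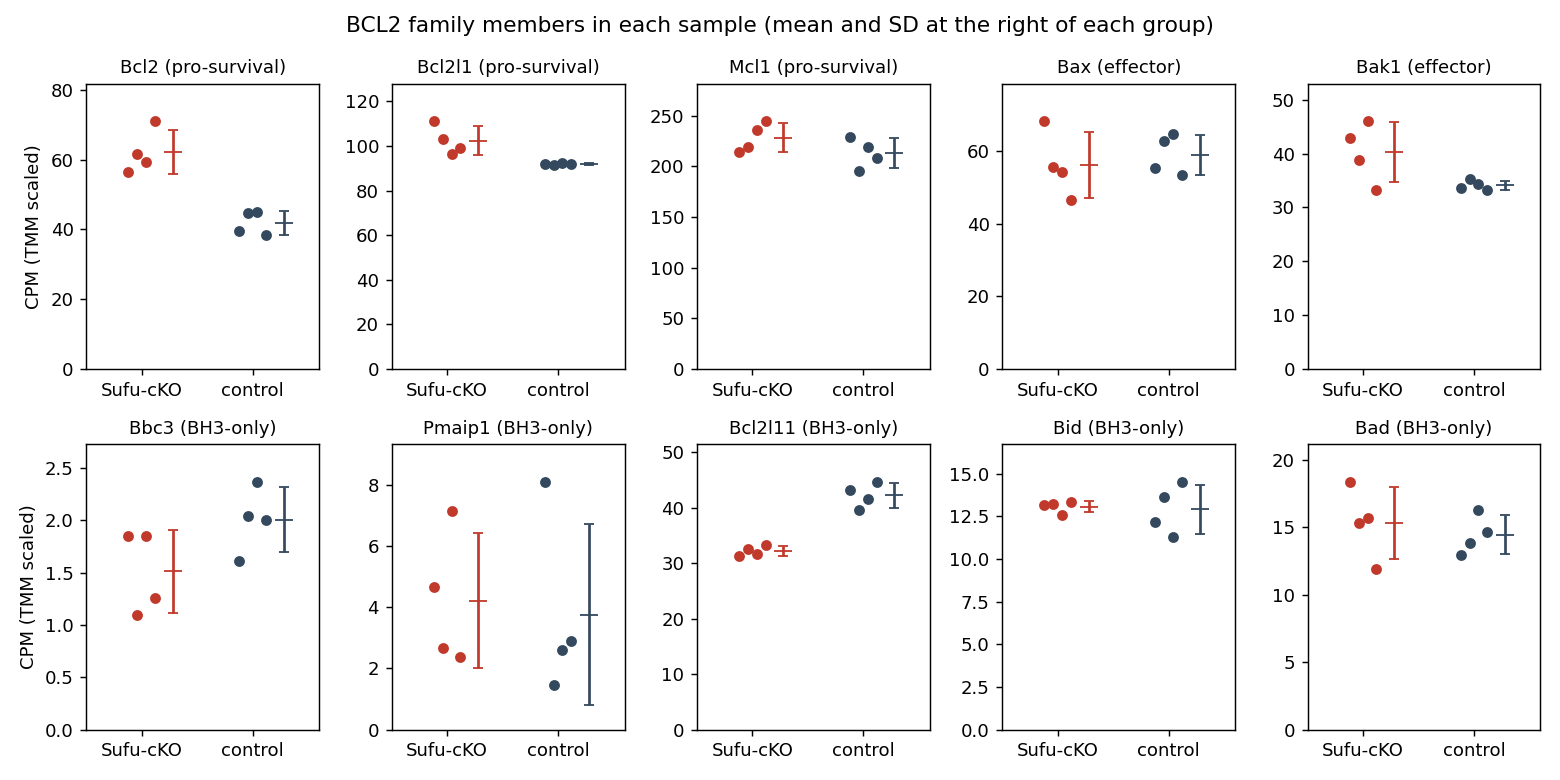
Level of each of the 10 BCL2 family genes in CPM, 1 point per sample, Sufu-cKO left of control, with the group mean. The Sufu-cKO points of Bcl2 (56.5 to 71.2 CPM) lie above all control points (38.3 to 45.0 CPM), and those of Bcl2l11 (31.3 to 33.3 CPM) lie below all control points (39.5 to 44.7 CPM).

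Pro-survival genes come first. Bcl2 (ENSMUSG00000057329, chromosome 1, 106538178 to 106714274, minus strand, GRCm38) encodes the founding inhibitor of the family. It stood at 56.5, 61.7, 59.5 and 71.2 CPM in the Sufu-cKO samples, against 39.4, 44.7, 45.0 and 38.3 CPM in the control samples. Every Sufu-cKO value exceeded every control value, and Mut_340 was the highest of the 8. On the log2 scale the fold change was 0.57 (SE 0.084, 95% interval 0.39 to 0.75, edgeR adjusted p = 0.00095). In the authors' deposited table the fold was 1.48 with a false discovery rate of 9.18e-07. In bulk tissue, more cells of a type that express a gene and more RNA per cell cannot be told apart.

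Bcl2l1 (chromosome 2, 152780668 to 152831728, minus strand) encodes BCL-XL, the pro-survival protein best known in young neurons. It had 111, 103, 96.4 and 99.0 CPM in the Sufu-cKO samples, against 91.8, 91.7, 92.4 and 91.7 CPM in the control samples. The groups did not overlap, and the control samples lay within 1 CPM of one another. That spread is narrower than counting noise at such counts, so their closeness carries little weight. The log2 fold change of 0.16 (SE 0.056, 95% interval 0.03 to 0.28) did not pass the test (edgeR adjusted p = 0.106). Mcl1 (chromosome 3, 95658721 to 95663176, plus strand) encodes a short-lived pro-survival protein that neural progenitors need. Its level was 228 ± 14.3 CPM in Sufu-cKO samples and 213 ± 14.6 CPM in control samples (SD, n = 4 each), with a log2 fold change of 0.10 (95% interval -0.04 to 0.24, edgeR adjusted p = 0.403). The samples of the groups overlapped.

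The effectors did not pass the test. Bax (chromosome 7, 45461695 to 45466898, minus strand) encodes the pore former that removal of surplus neurons depends on. It ranged from 46.6 to 68.4 CPM in Sufu-cKO samples and from 53.5 to 64.7 CPM in control samples, so the Sufu-cKO samples spanned the whole control range. On the log2 scale its fold change was -0.07 (SE 0.108, 95% interval -0.31 to 0.17, edgeR adjusted p = 0.770). Bak1 (chromosome 17, 27019810 to 27029009, minus strand) encodes the second pore former, which sits in the membrane of healthy mitochondria. It had 42.9, 38.8, 46.1 and 33.2 CPM in the Sufu-cKO samples, against 33.7, 35.3, 34.3 and 33.2 CPM in the control samples. Mut_295, Mut_317 and Mut_337 lay above every control sample, and Mut_340 lay just below the lowest of them, so the Sufu-cKO samples stood on both sides of the control range. The log2 fold change of 0.24 (SE 0.093, 95% interval 0.04 to 0.44) did not pass the test (edgeR adjusted p = 0.139). Without Mut_340 it was 0.32 and passed (edgeR adjusted p = 0.0193).

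Among the 5 BH3-only genes, Bcl2l11 alone was called. Bcl2l11 (ENSMUSG00000027381, chromosome 2, 128126038 to 128162547, plus strand) encodes BIM, which binds every pro-survival protein and can activate BAX and BAK directly. It stood at 31.3, 32.5, 31.6 and 33.3 CPM in the Sufu-cKO samples, against 43.2, 39.5, 41.7 and 44.7 CPM in the control samples. Every Sufu-cKO value was under every control value, and the Sufu-cKO samples spanned 2 CPM among themselves. On the log2 scale the fold change was -0.39 (SE 0.064, 95% interval -0.53 to -0.25, edgeR adjusted p = 0.00178). In the authors' deposited table the fold was 0.761 with a false discovery rate of 0.0035.

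The other BH3-only genes overlapped between the groups. Bbc3 (chromosome 7, 16309616 to 16318205, plus strand) encodes PUMA, a p53 target that drives death after DNA damage. Its level was 1.51 ± 0.395 CPM in Sufu-cKO samples and 2.01 ± 0.310 CPM in control samples (SD, n = 4 each), and its log2 fold change of -0.40 had a 95% interval of -0.90 to 0.09 (edgeR adjusted p = 0.328). That fold change was close in size to the one of Bcl2l11, with a wider interval on 31 to 75 counts per sample. Pmaip1 encodes NOXA, which chiefly neutralises MCL1. It had 4.67, 2.68, 7.12 and 2.36 CPM in the Sufu-cKO samples, against 8.10, 1.46, 2.59 and 2.88 CPM in the control samples. Its samples were the most scattered of the family, with a high value in both groups, and the 95% interval of the log2 fold change ran from -1.15 to 1.49 (edgeR adjusted p = 0.914). Bid (chromosome 6, 120891930 to 120916853, minus strand), which links death receptors to mitochondria once cleaved, was at 13.1 ± 0.333 CPM in Sufu-cKO samples and 12.9 ± 1.46 CPM in control samples (SD, n = 4 each). Bad (chromosome 19, 6941861 to 6951898, plus strand), whose protein is held inactive by phosphorylation downstream of growth factors, was at 15.3 ± 2.65 CPM in Sufu-cKO samples and 14.4 ± 1.43 CPM in control samples (SD, n = 4 each). The 95% intervals of their log2 fold changes were -0.20 to 0.24 for Bid (edgeR adjusted p = 0.948) and -0.20 to 0.37 for Bad (edgeR adjusted p = 0.773).

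**Figure D2:**
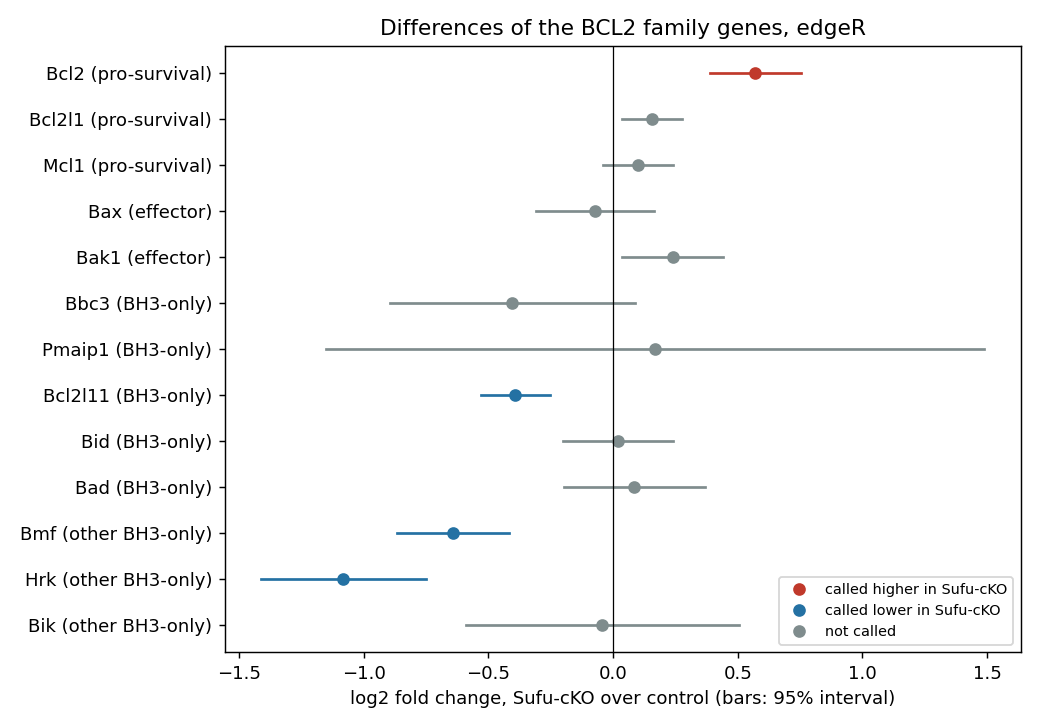
Log2 fold change of each family gene and of the further BH3-only genes Hrk, Bmf and Bik, Sufu-cKO over control, with its 95% interval, grouped by role. Bcl2 (0.57) was called higher, and Bcl2l11 (-0.39), Hrk (-1.08) and Bmf (-0.64) were called lower. The intervals of Bcl2l1 and Bak1 lie above 0, but neither gene passed the adjusted threshold.

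Some counts may include reads of a neighbour. Exons of Bak1, Bid and Bad overlap those of Ggnbp1, Bcl2l13 and Gpr137 on the opposite strand, and the strand setting of the counting is not given in the sources used here. Log2 fold changes of these neighbours were -0.13, 0.02 and 0.04, and none of the 3 was called by edgeR (adjusted p = 0.70, 0.874 and 0.877). Bcl2l13 had 4750 to 5978 counts per sample, far above Bid at 355 to 515. Gpr137 had 476 to 682 against 369 to 555 for Bad, and Ggnbp1 had 123 to 196 against 967 to 1573 for Bak1. How many reads of the neighbours entered these counts was not tested, and for Bid the share could be large. Bcl2 overlaps the antisense gene D630008O14Rik over 558 bases, which had 0 to 1 counts per sample. Bax shares exon bases with Gm45808 on its own strand, a gene not analysed here. Bcl2l11 had no such neighbour.

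Per kilobase of exon, the order of the genes could be set side by side. In Sufu-cKO samples the mean level ran from Mcl1 (66.8 CPM per kb) through Bax (35.6), Bcl2l1 (22.3), Bak1 (16.7), Bcl2 (6.79), Bad (5.99), Bcl2l11 (4.01), Bid (3.68) and Pmaip1 (1.54) to Bbc3 (0.712 CPM per kb). Neighbours in that order whose samples overlapped were Bcl2 with Bad and Pmaip1 with Bbc3. In control samples the mean level ran from Mcl1 (62.3 CPM per kb) through Bax (37.5), Bcl2l1 (20.0), Bak1 (14.2), Bad (5.64), Bcl2l11 (5.26), Bcl2 (4.57), Bid (3.64) and Pmaip1 (1.37) to Bbc3 (0.945 CPM per kb). There, Bad with Bcl2l11 and Pmaip1 with Bbc3 overlapped. The order was the same in both groups apart from Bcl2, which stood above Bad and Bcl2l11 in Sufu-cKO samples and below both in control samples. With the longest transcript as the length, Bcl2 was at 8.65 CPM per kb in Sufu-cKO samples and 5.82 in control samples. On that length Bad was above it in both groups (9.99 in Sufu-cKO and 9.42 in control samples). Bcl2l11 was then below Bcl2 in Sufu-cKO samples (6.39) and above it in control samples (8.39), as with exon length.

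**Figure D3:**
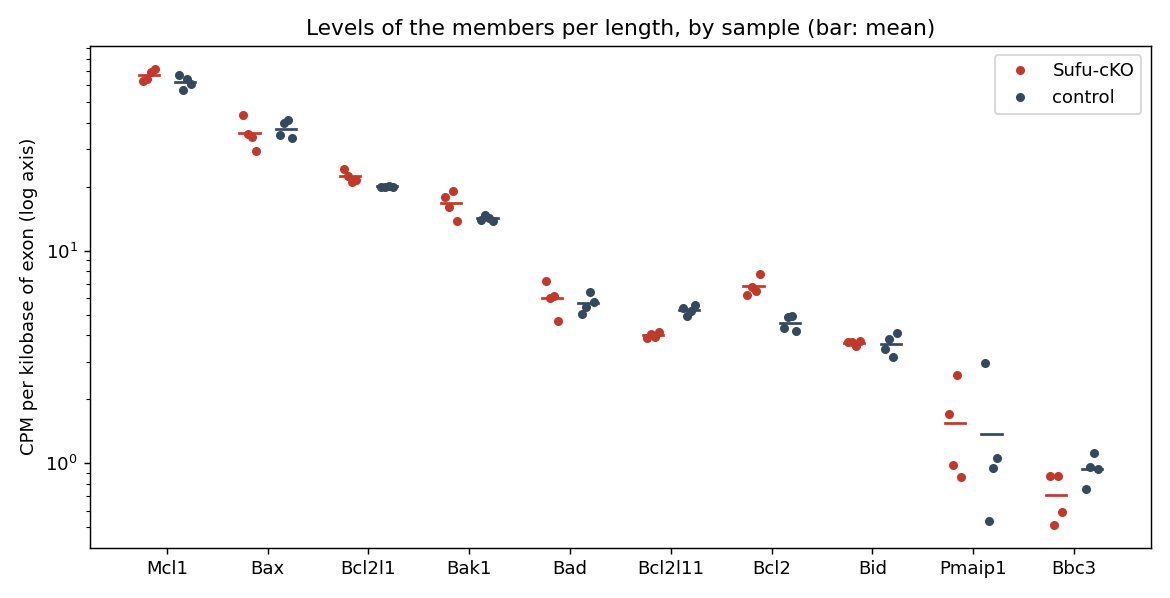
Level of each family gene in CPM per kilobase of exon on a log axis, 1 point per sample, Sufu-cKO left of control, with the group mean as a bar. Mcl1 and Bax lead in both groups, and Bcl2 and Bcl2l11 change places between the groups.

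Ratios within a sample do not depend on library scaling. The ratio of Bcl2 to Bcl2l11, in CPM per kb, was 1.58, 1.66, 1.65 and 1.88 in the Sufu-cKO samples, against 0.802, 0.992, 0.946 and 0.752 in the control samples. It was above 1 in every Sufu-cKO sample and below 1 in every control sample, although the point at which it crosses 1 depends on the exon lengths used. Each gene alone already separated the groups, in opposite directions, so the separation of their ratio was fixed and adds no support. Bcl2 made up 6.62% to 7.69% of the summed pro-survival level in Sufu-cKO samples and 4.71% to 5.96% in control samples. Mcl1 and Bcl2l1 made up the rest. The pro-survival sum itself was 93.1 to 101 CPM per kb in Sufu-cKO samples against 82.0 to 91.4 CPM per kb in control samples, and the groups did not overlap. Bcl2l11 made up 22.5% to 29.5% of the summed BH3-only level in Sufu-cKO samples and 30.6% to 32.0% in control samples. This share and that of Bcl2 rest on the same called genes and add no separate support. The BH3-only sum overlapped, at 14.0 to 17.4 CPM per kb in Sufu-cKO samples and 15.7 to 17.6 CPM per kb in control samples. The effector sum overlapped as well, at 43.3 to 61.2 CPM per kb in Sufu-cKO samples and 47.7 to 55.3 CPM per kb in control samples. Within it, Bak1 relative to Bax was 0.411, 0.457, 0.557 and 0.466 in the Sufu-cKO samples, against 0.398, 0.367, 0.347 and 0.407 in the control samples. The lowest Sufu-cKO ratio (0.411, Mut_295) stood just above the highest control ratio (0.407, Cont_370), and neither gene was called. This ratio was not tested, and counts of Bak1 may include reads of Ggnbp1. For single genes the groups did not overlap in 16.2% of those tested, and no such share was taken for ratios.

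**Figure D4:**
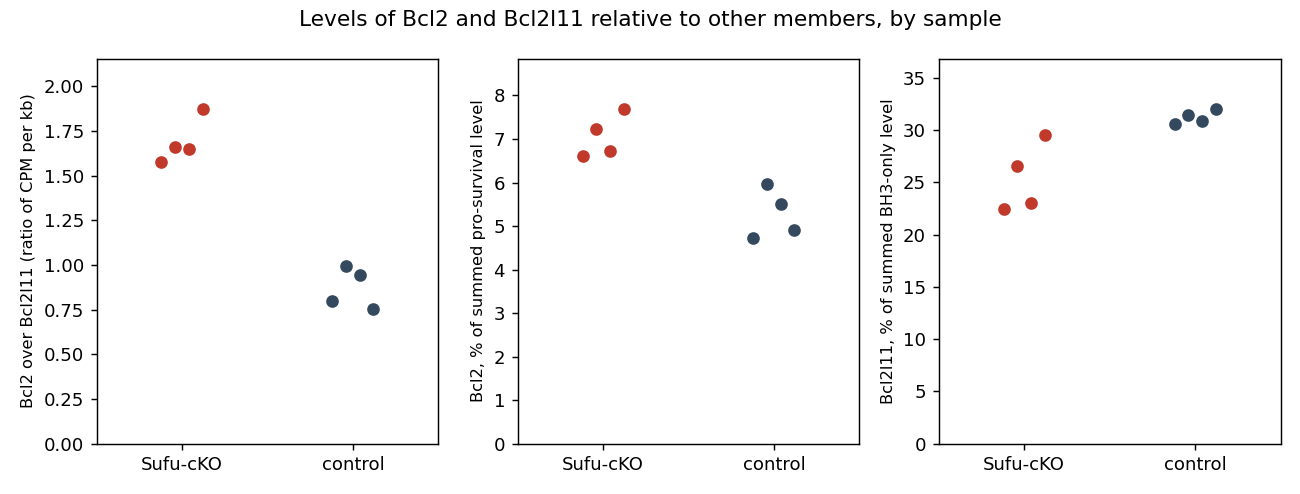
Ratio of Bcl2 to Bcl2l11 (CPM per kb), Bcl2 as a percent of the summed pro-survival level, and Bcl2l11 as a percent of the summed BH3-only level, 1 point per sample, Sufu-cKO left of control. The groups do not overlap in any of the 3 panels. For the ratio this was fixed by Bcl2 and Bcl2l11, each of which separates the groups alone. Both shares rest on the same genes and are no separate support.

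For the promoters of the 2 called genes, sequence just before an annotated start is shown from RefSeq windows on GRCm38.p6, so that their base composition can be seen. The 250 bases before the start are given 5′ to 3′ on the strand of the gene, with CG dinucleotides in capitals. Bcl2l11 has a second annotated start, whose window is not printed, and counts per gene do not show which start was used. The first line is Bcl2, chr1:106714291-106714540, minus strand, and the second is Bcl2l11, chr2:128125788-128126037, plus strand.
Bcl2: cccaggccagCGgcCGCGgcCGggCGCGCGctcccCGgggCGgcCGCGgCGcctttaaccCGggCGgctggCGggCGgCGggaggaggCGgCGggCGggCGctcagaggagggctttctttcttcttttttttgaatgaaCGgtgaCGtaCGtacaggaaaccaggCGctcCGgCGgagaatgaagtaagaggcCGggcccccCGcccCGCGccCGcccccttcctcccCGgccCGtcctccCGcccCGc
Bcl2l11: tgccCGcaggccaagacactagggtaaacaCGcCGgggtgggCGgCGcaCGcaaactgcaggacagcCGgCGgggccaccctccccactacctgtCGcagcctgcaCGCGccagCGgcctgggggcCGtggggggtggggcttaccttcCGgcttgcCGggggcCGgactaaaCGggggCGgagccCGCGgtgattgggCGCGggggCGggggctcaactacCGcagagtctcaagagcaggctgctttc
Both stretches were rich in G and C, 74.8% for Bcl2 with 36 CG dinucleotides and 72.0% for Bcl2l11 with 24. The 250 bases before the second Bcl2l11 start were 73.2% G and C with 30 CG dinucleotides. The median over all RefSeq windows was 52.7%, taken with the 50 bases after the start included. For family genes not called, the 250 bases ran from 47.6% (a start of Bcl2l1) to 81.6% (a start of Bbc3). The GLI core TGGGTGGTC was searched on both strands (its reverse is GACCACCCA) in windows from 250 bases before to 50 bases after each start. It stood in 83 of 32851 windows, or 0.253%, and in 0 of the 15 windows of the 9 family genes in the table. With 1 mismatch allowed it stood in 6.74% of all windows and in 1 of the 15, a window of Bcl2l1 that holds TGGGGGGTC. A missing match says only that these letters are not in these windows.

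Beyond the 10 core genes, more BH3-only genes were lower. Hrk encodes harakiri, a BH3-only protein known from neurons deprived of growth factor. It had 9.37, 7.92, 6.18 and 9.27 CPM in the Sufu-cKO samples, against 16.7, 21.2, 16.7 and 14.7 CPM in the control samples. The groups did not overlap, and the fold change on the log2 scale was -1.08 (SE 0.152, edgeR adjusted p = 0.000657). Bmf encodes a BH3-only protein tied to the cytoskeleton and released on loss of attachment. It had 17.3, 19.0, 21.6 and 15.2 CPM in the Sufu-cKO samples, against 26.8, 29.0, 29.7 and 28.5 CPM in the control samples. Its groups did not overlap either, and the fold change on the log2 scale was -0.64 (SE 0.103, edgeR adjusted p = 0.00167). Bik, a further BH3-only gene looked up after the values were known, had a log2 fold change of -0.04 (edgeR adjusted p = 0.952). Counted with the core ones this gave 8 BH3-only genes. Of these, 3 were lower (Bcl2l11, Hrk and Bmf) and 5 were not called, beside 5.64% lower over all tested genes. Bnip3 and Bnip3l were not counted with them and were not called by edgeR (log2 fold changes 0.15 and 0.02). With 8 genes, 1 of them added after its values were known, this count is a description only. In the list of other BCL2-related genes, 10 of 15 were tested, 2 were lower (Hrk and Bmf), 8 were not called and the median log2 fold change was -0.02. Bcl2a1a, Bcl2a1b, Bcl2a1d, Bcl2l10 and Bcl2l14 had at most 3 counts in any sample and were not tested.

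Downstream of the mitochondrion, the apoptosome, caspases and their inhibitors held 15 tested genes. None was called by edgeR, 5 had an unadjusted p under 0.05, and DESeq2 called 1 and limma-voom 0. Their median log2 fold change was 0.04. Casp2, an initiator caspase, was at 159 ± 4.49 CPM in Sufu-cKO samples and 158 ± 4.33 CPM in control samples (SD, n = 4 each). Xiap, the caspase inhibitor, had a log2 fold change of 0.19 (edgeR adjusted p = 0.108), which passed only without Mut_295 (edgeR adjusted p = 0.0424). Partners of the family in the outer membrane also held no called gene among 10 tested, with 1 at an unadjusted p under 0.05 and none called by DESeq2 or limma-voom. Vdac1, the main pore of that membrane, had a log2 fold change of 0.06 (edgeR adjusted p = 0.581), and the cell death inhibitor Tmbim6 one of -0.07 (edgeR adjusted p = 0.654).

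Further calls fell among p53 and its targets and among the FOXO and JNK regulators. These lists are short, so their counts are a description only. Of 18 tested genes of p53 and its targets, 3 were lower and 15 were not called, beside 5.64% lower over all tested genes. Their median log2 fold change was -0.16. Trp53 itself, which encodes p53, fell to 134 ± 6.54 CPM in Sufu-cKO samples, against 163 ± 7.54 CPM in control samples (SD, n = 4 each), a log2 fold change of -0.28 (edgeR adjusted p = 0.00616). Trp53inp1, a p53 cofactor, had a log2 fold change of -0.25 (edgeR adjusted p = 0.0251), and the membrane protein gene Perp one of -0.73 at 1.90 CPM in Sufu-cKO samples against 3.16 CPM in control samples (edgeR adjusted p = 0.0471). Trp53inp1 was not called without Mut_317, Cont_345 or Cont_365 (edgeR adjusted p up to 0.0721). Perp kept its call only when Mut_337 was the sample left out (edgeR adjusted p up to 0.133). Among the p53 targets of the BCL2 family, Bbc3, Pmaip1 and Bax were not called, as given above.

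FOXO and JNK regulators act on Bcl2l11, since FOXO3 is known to activate its transcription and JNK kinases to phosphorylate BIM. Of 12 tested, 1 was higher, 3 were lower and 8 were not called, beside 5.34% higher and 5.64% lower over all tested genes. Their median log2 fold change was -0.06. Mapk10, the JNK gene most restricted to neurons, rose to 34.5 ± 2.71 CPM in Sufu-cKO samples, against 21.0 ± 2.94 CPM in control samples (SD, n = 4 each), a log2 fold change of 0.71 (edgeR adjusted p = 0.000772). Foxo3 fell to 41.1 ± 2.78 CPM in Sufu-cKO samples, against 51.1 ± 4.02 CPM in control samples (SD, n = 4 each), a log2 fold change of -0.31 (edgeR adjusted p = 0.0179). It was not called without Cont_345 or Cont_365 (edgeR adjusted p = 0.0651 and 0.0563). The part of Foxo3 in the level of Bcl2l11 was not tested. Foxo4 had a log2 fold change of -0.29 (edgeR adjusted p = 0.0112), and Foxo6 one of -0.95 (edgeR adjusted p = 0.0428). Foxo6 was not called without Mut_295, Mut_337, Mut_340, Cont_345 or Cont_365 (edgeR adjusted p up to 0.125), or with no filter on low counts (edgeR adjusted p = 0.138).

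The death receptor pathway had 10 of 12 genes tested, with 1 higher, 1 lower and 8 not called, and a median log2 fold change of -0.06. Fadd, the adaptor that joins receptors to caspase-8, had a log2 fold change of 0.33 (edgeR adjusted p = 0.0207), and Ngfr, the p75 neurotrophin receptor, one of -0.57 (edgeR adjusted p = 0.0408). Fadd was not called without Mut_317, Mut_337, Cont_345 or Cont_365 (edgeR adjusted p up to 0.0712). Ngfr kept its call only without Mut_295 or Cont_294 (edgeR adjusted p up to 0.121 otherwise). Fas and Fasl, the best known receptor and ligand, had at most 12 and 5 counts in any sample and were not tested. In the integrated stress response, 0 of 11 genes were called by edgeR, 3 had an unadjusted p under 0.05, and DESeq2 and limma-voom called 0. Its chaperone gene Hspa5 had a log2 fold change of 0.20 (edgeR adjusted p = 0.111), which passed without Mut_295 (edgeR adjusted p = 0.00798), and its transcription factor gene Atf4 one of -0.03 (edgeR adjusted p = 0.854). Over these 7 lists 85 of 92 genes were tested, 2 were higher, 9 were lower and 74 were not called, so that 12.9% were called beside 11.0% of all genes.

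**Figure D5:**
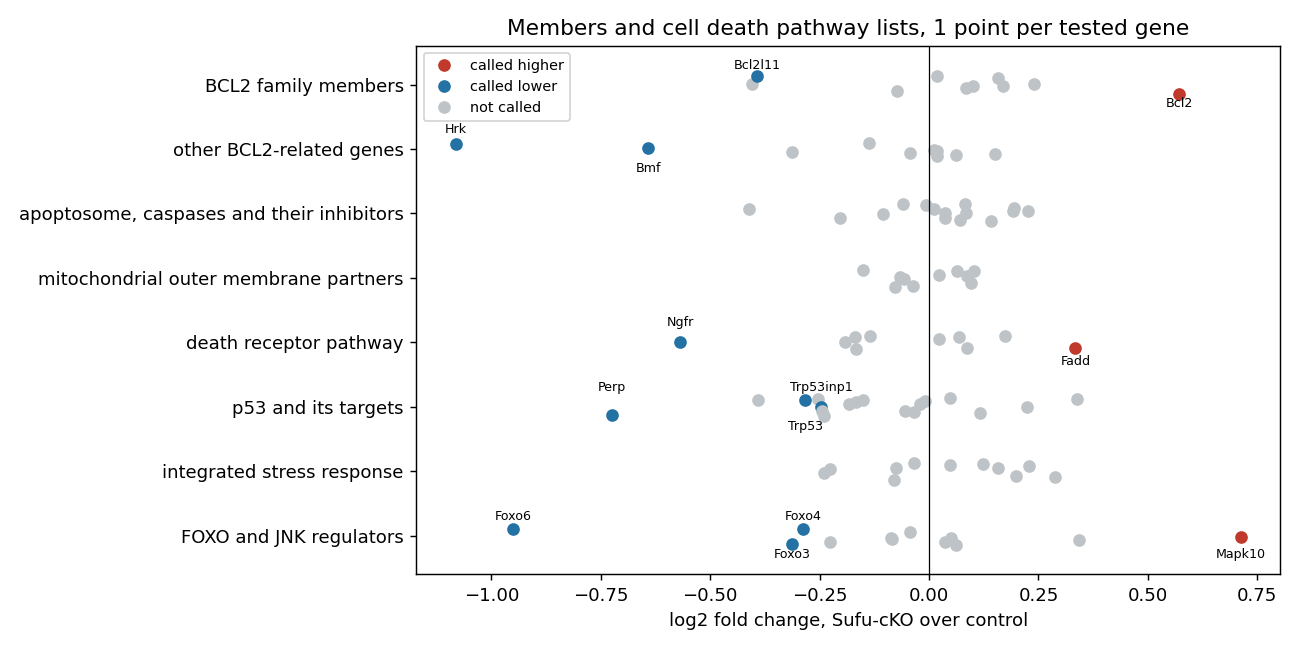
Log2 fold change, Sufu-cKO over control, of the 10 family genes and of the 85 tested genes in the 7 pathway lists, with called genes coloured and named. There is 1 point per gene, except that Sesn2 is drawn in both of its lists. Points are spread vertically within a list only for legibility. Hrk (-1.08), Foxo6 (-0.95), Perp (-0.73) and Bmf (-0.64) lie to the left and Bcl2 (0.57) and Mapk10 (0.71) to the right.

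Markers of some cell types differed between the groups beside these genes. Over all tested genes 5.34% were called higher and 5.64% lower. The marker lists are short, so their counts are a description only. Young neuron markers had 6 of 10 called higher, at a summed 2497 to 2701 CPM in Sufu-cKO samples against 1983 to 2319 CPM in control samples. Dorsal progenitor markers had 5 of 10 called higher and 4 lower, at a summed 3995 to 4130 CPM in Sufu-cKO samples against 3217 to 3461 CPM in control samples. Neither pair of sums overlapped. The largest parts of the progenitor sum were Vim (1348 CPM in Sufu-cKO and 998 CPM in control samples) and Nes (1140 and 849 CPM). Both were called higher, whereas Emx1, Emx2, Lhx2 and Dmrta2 were called lower, so the sum does not describe every marker. Choroid plexus markers had 6 of 9 called lower by edgeR, at 92.4 to 293.5 CPM in Sufu-cKO samples against 529 to 805 CPM in control samples. DESeq2 called 9 of these genes, Ttr among them, and limma-voom 8. Microglial markers had 4 of 10 lower, at 37.8 to 47.9 CPM in Sufu-cKO samples against 48.5 to 65.7 CPM in control samples. Pericyte markers had 2 of 7 lower, at 170 to 227 CPM in Sufu-cKO samples against 261 to 288 CPM in control samples. These 3 sums did not overlap between the groups, and each was lower in Sufu-cKO samples. Endothelial markers had 3 of 10 lower by edgeR and DESeq2 and 1 by limma-voom, at 282 to 338 CPM in Sufu-cKO samples against 332 to 385 CPM in control samples. GABAergic markers had 1 of 10 higher, at 30.6 to 173 CPM in Sufu-cKO samples against 10.8 to 103 CPM in control samples. Erythroid markers had 0 of 10 called by edgeR and limma-voom, with 4 at an unadjusted p under 0.05 and 2 called by DESeq2, at 3047 to 3516 CPM in Sufu-cKO samples against 3535 to 4577 CPM in control samples. The endothelial and GABAergic sums overlapped and the erythroid sums did not. Ttr was the largest part of the choroid plexus sum (143 CPM in Sufu-cKO and 465 CPM in control samples). Hbb-y was the largest part of the erythroid sum (2593 and 3104 CPM), and neither gene was called by edgeR. No marker was at 0 in every sample. The lowest choroid plexus sum was that of Mut_340, the sample with the highest Bcl2 level. Without it the log2 fold changes were 0.49 for Bcl2, -0.41 for Bcl2l11, -1.15 for Hrk and -0.57 for Bmf, and all 4 stayed called (edgeR adjusted p = 0.00176, 0.00222, 0.00154 and 0.00276). The remaining Sufu-cKO samples all had choroid plexus sums below every control sample. Leaving out Mut_340 therefore does not test the part of choroid plexus cells. The part of any of the cell types above in the levels of Bcl2, Bcl2l11, Hrk and Bmf was not tested.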

How the data were processed

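RNA from dorsal forebrain was made into libraries with a stranded mRNA kit, per the labels' protocols, and aligned with STAR 2.4.2a to GRCm38, per the submitters' processing notes. How reads were counted, and with what strand setting, is not given in the sources used here. Raw counts by gene were deposited by the authors and tested here, beside a table of normalised signal, fold (a ratio of Sufu-cKO to control), p-value and false discovery rate. From that table only the authors' fold and false discovery rate are quoted.

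Total counts were 27514357 to 34878838 per sample, and columns of values matching no sample numbered 0. Counts were filtered with filterByExpr (minimum count 10, minimum total 15), which left 15382 of 25299 genes with counts, holding 99.94% of all counts. They were scaled by TMM and tested with edgeR 4.0.16 in R 4.3.3 (quasi-likelihood F-test, robust, 2-sided, Benjamini-Hochberg over all tested genes, threshold 0.05). Each SE was the log2 fold change divided by the root of its F statistic. CPM used TMM factors. Exon length was the union of exons in GENCODE M21. Promoter windows are from RefSeq. The test was tried on simulated data with known changes. It recovered 32% of genes changed 1.3-fold, 62% at 1.5-fold, 92% at 2-fold and 96% at 4-fold (50 genes each). Changed genes were drawn from all tested genes, whatever their level. Fewer were changed than the 1689 called in the data, which makes the adjusted threshold harder to pass. These shares therefore need not hold for the real samples. A gene not called may therefore still differ by a small fold. Whether replicates were separate embryos is not in the labels, so p-values reflect only sample-to-sample spread, part of which could be technical. Pairs of samples within a group differed beyond sampling noise.

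The 10 genes and all gene lists were chosen with earlier results of these data known. Named were all 10 genes, Sufu, Gli1 and Ptch1, and from each pathway list the called genes (at most the 4 with smallest p), with abundant genes added where fewer than 2 were called. Alternatives were other scalings and filters, DESeq2 1.42.0, limma-voom 3.58.1, edgeR without robust estimation, another gene length, and leaving out each sample.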

Additional observations from a re-analysis of the deposited data

Results flagged for a closer look

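A sample was singled out where its gap to the nearest of its group was large for the range of the group by Dixon's criterion for 4 samples at the 95% level. Over 92 groups tested 4 were singled out, and chance gives about 1 in 20. Bcl2l1 in Cont_365 was at 92.4 CPM, above the other 3 control samples, though all 4 lay within 1 CPM of one another. Casp2 in Mut_340 was at 165 CPM, above the other Sufu-cKO samples at 156 to 157 CPM. Gli1 in Mut_340 was at 43.6 CPM, the lowest of its group. Npy in Mut_317 was at 2.39 CPM, above the other Sufu-cKO samples at 1.36 to 1.39 CPM.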

How the results depend on the processing

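Bcl2 and Bcl2l11 were called in all 8 fits that left out 1 sample and under all 8 other alternatives. Without 1 sample, the log2 fold change of Bcl2 ran from 0.49 to 0.61 (edgeR adjusted p 0.000923 to 0.00474) and that of Bcl2l11 from -0.42 to -0.37 (edgeR adjusted p 0.00222 to 0.00816). Called family genes numbered 2 to 3, with 1 to 2 higher, the added one being Bak1 without Mut_340. Bcl2l1 was called in none of them (edgeR adjusted p 0.102 to 0.22 with a sample left out). Over all genes, 1079 (without Cont_345) to 1836 (without Mut_295) were called with a sample left out, 537 to 939 of them higher and 542 to 897 lower, against 1689, 822 and 867. Other settings gave 1603 to 2124 called genes, the highest by DESeq2.

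Small fold changes changed sign. With a sample left out the log2 fold change ran from -0.183 to 0.00227 for Bax, from -0.221 to 0.860 for Pmaip1, from -0.0501 to 0.0733 for Bid, from -0.0153 to 0.183 for Bad, from -0.0149 to 0.0299 for Casp2 and from -0.0773 to 0.0213 for Atf4. By upper quartile scaling it was -0.00102 for Bid and -0.00811 for Casp2, and by total counts -0.000118 and -0.00743. The cause was not tested, and none of these genes was called. Perp was not called without robust estimation (edgeR adjusted p = 0.0528). No paired analysis was possible because the sample numbers of the groups are all different. The depth left Bbc3, at 31 to 75 counts, with a wide interval.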
